A study of Arabidopsis thaliana with 16 samples.

Results

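Roots of HRE1-RNAi seedlings kept in air were compared with roots of wild type seedlings kept in air, on 8 of the 16 Affymetrix arrays of a study of Arabidopsis thaliana under low oxygen. The groups were HRE1-RNAi normoxia (4 arrays) and wild type normoxia (4 arrays). The other 8 arrays, HRE1-RNAi hypoxia and wild type hypoxia, serve here as a second look at the same lines and share no array with this comparison. All plants were Columbia seedlings 14 d old, grown on agar with sucrose, and both conditions are labelled as lasting 6 h. For hypoxia, roots hung from a floating platform in medium gassed with 3% oxygen in the dark. How the normoxia plants were held is not given in the sources used here. The HRE1-RNAi plants carry an RNA interference construct against AtERF73/HRE1, and no group here carries an empty construct. Titles give these arrays as 1 line, HRE1-RNAi20, while the descriptions of the normoxia arrays number it differently on each array, so whether they come from 1 line is not settled here. The promoter driving the construct is not given in the sources used here. Arrays of a group are labelled as biological replicates. The p-values set each difference against the spread between arrays within groups. That spread was estimated over all 16 arrays and drawn towards that of other probe sets.

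HRE1 is a group VII ethylene response factor, a small family of transcription factors whose stability depends on oxygen and which switch on fermentation and other genes of the low-oxygen response. The HRE1 transcript itself is known to be scarce in air and to be induced by hypoxia and ethylene, so the comparison in air asks what the construct changes before that response starts. RNA interference lowers a transcript through small RNAs cut from a double-stranded copy of it. No probe set was paired with HRE1 as its only gene in the gene tables used, nor with any of the 5 listed group VII factors, so the knock-down could not be checked here. Of the 22746 probe sets tested, those tables paired 8730 with no gene and 503 with several. Whether any of these measures HRE1 is not known from the sources used here.

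Each array gave 1 intensity for each of 22746 probe sets besides the manufacturer's controls, on a linear scale that the authors had set to a common level. Differences below are log2 differences of group means, HRE1-RNAi minus wild type, after adding 16 to each intensity, which understates changes of dim probe sets. The standard error follows each difference, and every group has n = 4 arrays. A probe set was called where limma's adjusted p, by the Benjamini-Hochberg method over all 22746, lay below 0.05. HRE1-RNAi normoxia replicate 4 stood apart, with a median intensity of 206.5 against 179.95 to 189.3 in the other 3 HRE1-RNAi arrays and 179.9 to 193.6 in wild type. It also had the highest mean excess of 3' over 5' control probe sets of the 8, at 1.32 log2 against 0.93 to 1.07 in the other HRE1-RNAi arrays and 0.93 to 1.20 in wild type. Its weight estimated by limma was the lowest of the 8, at 0.42 against 0.73 to 1.68. HRE1-RNAi hypoxia replicate 4 stood apart from the other hypoxia arrays likewise. Its median was 191.1 against 166.3 to 178.05, its 3' excess 1.35 against 0.96 to 1.15, and its weight 0.40 against 0.65 to 2.00. Its 25S rRNA control read 1775.5 against 13790.9 to 20696.0. In normoxia this control read 273.1 in HRE1-RNAi replicate 4, 821.2 to 3262.1 in the other HRE1-RNAi arrays and 576.5 to 4253.3 in wild type. Apart from HRE1-RNAi hypoxia replicate 4, it was thus higher in hypoxia than in normoxia. Any bearing of this on comparisons between the conditions was not tested. Whether the HRE1-RNAi arrays numbered 4 are linked across conditions was not tested. The summed intensity of 55 class III peroxidases, a family abundant in roots, was 73300 to 105955 in HRE1-RNAi and 80142 to 95725 in wild type. Of 14 shoot markers 2 were measured, RCA and LHCB4.1, both of photosynthesis, and their summed intensity of 1728 to 1911 in HRE1-RNAi overlapped that of 1717.5 to 1990 in wild type.

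In air 6 of the 22746 probe sets differed between the lines, 0.0264% of those tested. HRE1-RNAi exceeded wild type in 1 (0.0044%) and lay below it in 5 (0.022%). In each of the 6, no HRE1-RNAi array overlapped a wild type array. Over the whole array, 1.08% lay above wild type and 1.96% below it without overlap, so the lack of overlap alone does not single these out. The 6 included a defensin-like gene and a lipid transfer gene of a defence-linked cluster, both lower, and AT5G15360, which was higher. The other 3 were not paired with a gene in the tables used and are named by their probe sets. In whole roots, fewer cells of a type and less RNA per cell cannot be told apart for these or the values below.

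Probe set 263494_at was by far the furthest apart. Its intensity was 173.6, 139.2, 128.4 and 275.6 in HRE1-RNAi normoxia, against 2745.7, 3201.8, 2768.7 and 1762.6 in wild type normoxia. The highest HRE1-RNAi array, replicate 4, lay far below the lowest wild type array, which was also a replicate 4. The difference was -3.78 ± 0.22 log2, 13.7-fold lower in HRE1-RNAi (limma adjusted p = 6.9e-10, 95% interval -4.23 to -3.33). Hypoxia arrays of the same lines gave 121.5, 93.3, 130.5 and 188.5 in HRE1-RNAi against 1788.2, 2190.9, 1751.9 and 1654.6 in wild type, 12.7-fold lower. The difference between the conditions was 0.11 ± 0.31 log2, and hypoxia against normoxia, called for 18.2% of probe sets in HRE1-RNAi and 17.8% in wild type, was not called here (-0.37 ± 0.22 in HRE1-RNAi and -0.48 ± 0.22 in wild type).

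AT5G15360 was the one probe set higher in HRE1-RNAi. It encodes a protein for which the tables used give no name. Its intensity was 473.3, 459.6, 431.5 and 453.2 in HRE1-RNAi normoxia, against 221.2, 140.6, 191.3 and 160.7 in wild type normoxia. The 4 HRE1-RNAi arrays lay close together, all above the highest wild type array. The difference was 1.29 ± 0.17 log2, 2.45-fold higher (limma adjusted p = 0.00062). In hypoxia its intensity was 294.8, 290.1, 372.2 and 443.1 in HRE1-RNAi, against 135.1, 163.4, 178.6 and 130.1 in wild type, 2.17-fold higher (limma adjusted p = 0.0081), where 0.022% of all probe sets were called between the lines. That call was lost when HRE1-RNAi hypoxia replicate 3 or wild type hypoxia replicate 1 or 4 was left out (limma adjusted p = 0.068 to 0.072). AT5G15360 and 263494_at were thus called in both conditions, and the difference between conditions was called for neither. Of the nearest genes on either side in the RefSeq TAIR10.1 annotation, no probe set was paired with ENODL17, the lncRNA AT5G02405 or DRM1. A little further off, AT5G15340 (0.23 ± 0.45) and AT5G15390 (-0.028 ± 0.15) were not called.

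AT4G12500 encodes a small secreted protein of the lipid transfer family. It lies in a tandem cluster with AZI1 and EARLI1, which are known from defence priming and responses to stress. Its intensity was 100.1, 123.5, 173.8 and 91.6 in HRE1-RNAi normoxia, against 356.7, 236.4, 456.5 and 465.3 in wild type normoxia. All 4 HRE1-RNAi arrays were below the lowest wild type array, replicate 2. The difference was -1.50 ± 0.22 log2, 2.84-fold lower (limma adjusted p = 0.0027). With hypoxia it was 282.6, 417.1, 330.5 and 445.0 in HRE1-RNAi and 754.9, 715.8, 490.0 and 785.7 in wild type. Again no array overlapped, at -0.87 ± 0.22 log2, which was not called (limma adjusted p = 0.64). Hypoxia raised the transcript in both lines, by 1.49 ± 0.22 in HRE1-RNAi and 0.85 ± 0.22 in wild type. The call in normoxia was lost when the spread was taken from the normoxia arrays alone (limma adjusted p = 0.060).

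AT4G22212 encodes a defensin-like protein, one of many small cysteine-rich peptides of plants. Its intensity was 10395.7, 9694.6, 10576.1 and 9980.9 in HRE1-RNAi normoxia, against 14262.7, 16476.7, 18189.7 and 16084.5 in wild type normoxia. This was a bright probe set with a small and even difference, -0.67 ± 0.10 log2 or 1.59-fold lower (limma adjusted p = 0.0027). It was lost with the normoxia arrays alone and with neither trend nor robust moderation (limma adjusted p = 0.060 in each). Under hypoxia the lines overlapped, with 13872.2 to 16239.9 in HRE1-RNAi and 15340.7 to 17643.9 in wild type. There the difference was -0.11 ± 0.10 log2, and the change between conditions, 0.56 ± 0.14, was not called (limma adjusted p = 0.49).

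A pair of probe sets without a gene were lower in HRE1-RNAi in air and overlapped wild type in hypoxia. The intensity of 262119_s_at was 3730.9, 4208.5, 3627.5 and 3628.4 in HRE1-RNAi normoxia, against 7581.2, 6546.9, 7305.0 and 8686.7 in wild type normoxia. That is 1.97-fold lower (-0.98 ± 0.10 log2, limma adjusted p = 5.3e-05). In hypoxia it ranged from 14872.8 to 17197.1 in HRE1-RNAi and from 14302.6 to 15949.0 in wild type, overlapping. Both lines brightened with hypoxia, by 2.06 ± 0.10 log2 in HRE1-RNAi and 0.98 ± 0.10 in wild type. The difference between conditions was itself called (1.09 ± 0.15 log2, limma adjusted p = 0.0060).

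Probe set 251677_at was at 474.9, 559.4, 439.0 and 558.2 in HRE1-RNAi normoxia, against 990.4, 957.5, 1063.6 and 1110.3 in wild type normoxia. The HRE1-RNAi arrays were thus 2.00-fold lower with no overlap (-1.003 ± 0.13 log2, limma adjusted p = 0.00062). In hypoxia its range was 967.9 to 1269.1 in HRE1-RNAi and 964.1 to 1221.1 in wild type. Between hypoxia and normoxia it rose by 1.17 ± 0.13 log2 in HRE1-RNAi, while the value in wild type, 0.07 ± 0.13, was not called. The difference between conditions was 1.11 ± 0.18 log2 (limma adjusted p = 0.022). It was not called with neither trend nor robust moderation (limma adjusted p = 0.064). The call was borderline. Leaving out any of wild type normoxia 1 to 4 or HRE1-RNAi normoxia 1 ended it. So did any of wild type hypoxia 2 to 4 or HRE1-RNAi hypoxia 2 or 3 (limma adjusted p = 0.054 to 0.10 in all). The difference itself stayed at 1.06 to 1.14 log2 where the call was lost. For 262119_s_at the call held in all 25 alternatives that kept the 4 groups. Over all probe sets this difference was called for 4, or 0.0176%.

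**Figure D1:**
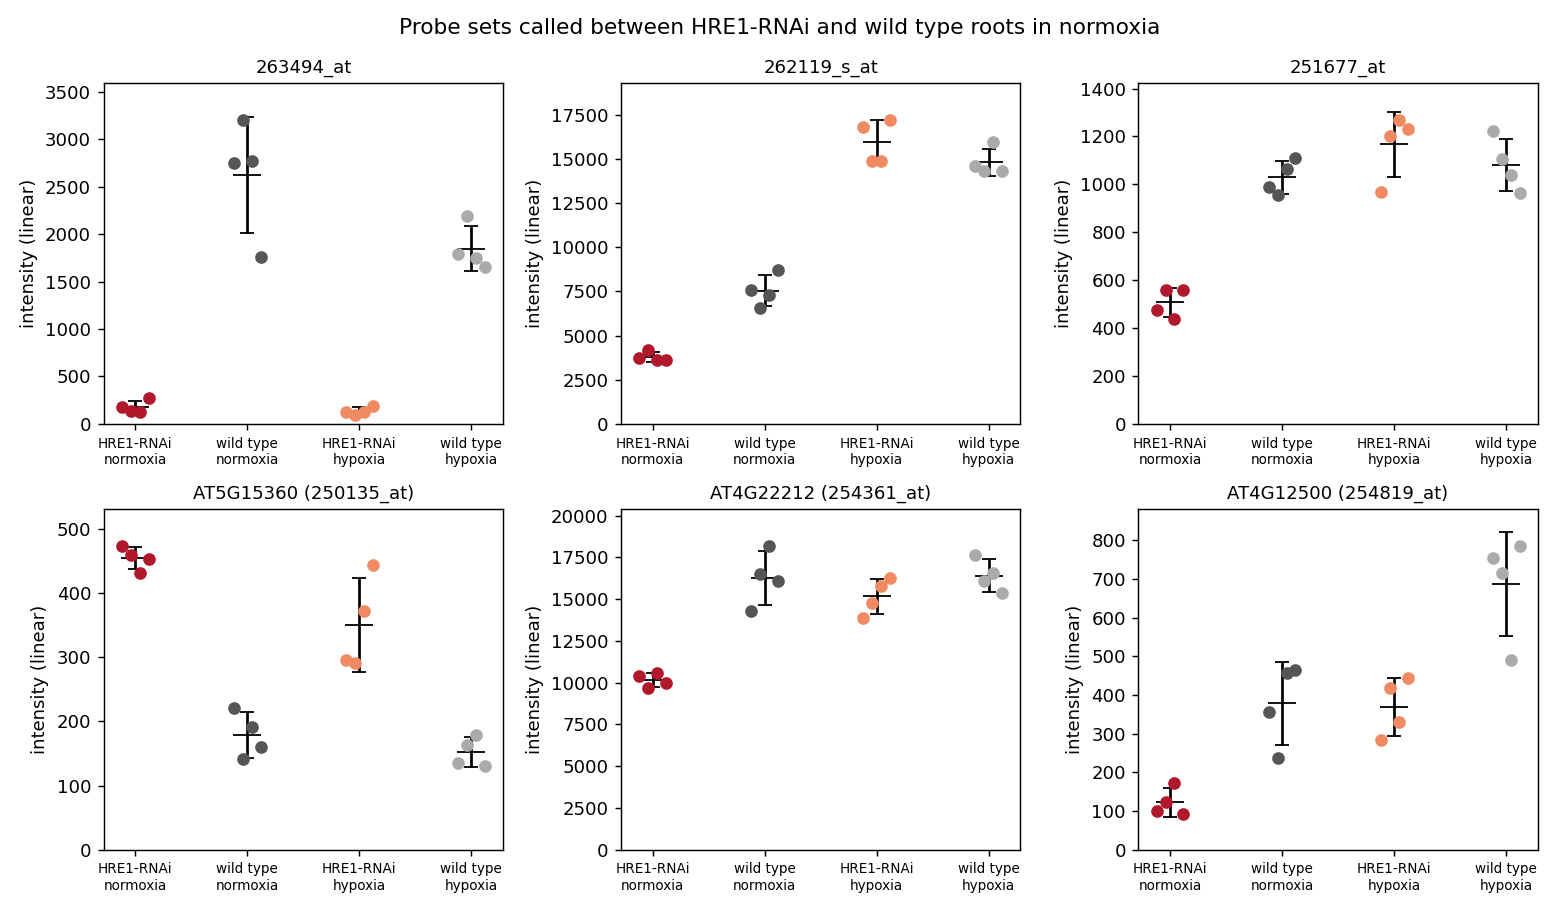
Intensity (linear scale) of the 6 probe sets called between the lines in normoxia, with a point per array and the mean ± SD of 4 arrays per group. In 263494_at and AT5G15360 the lines stay apart in hypoxia, while in 262119_s_at, 251677_at and AT4G22212 the hypoxia arrays of the lines overlap.

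**Figure D2:**
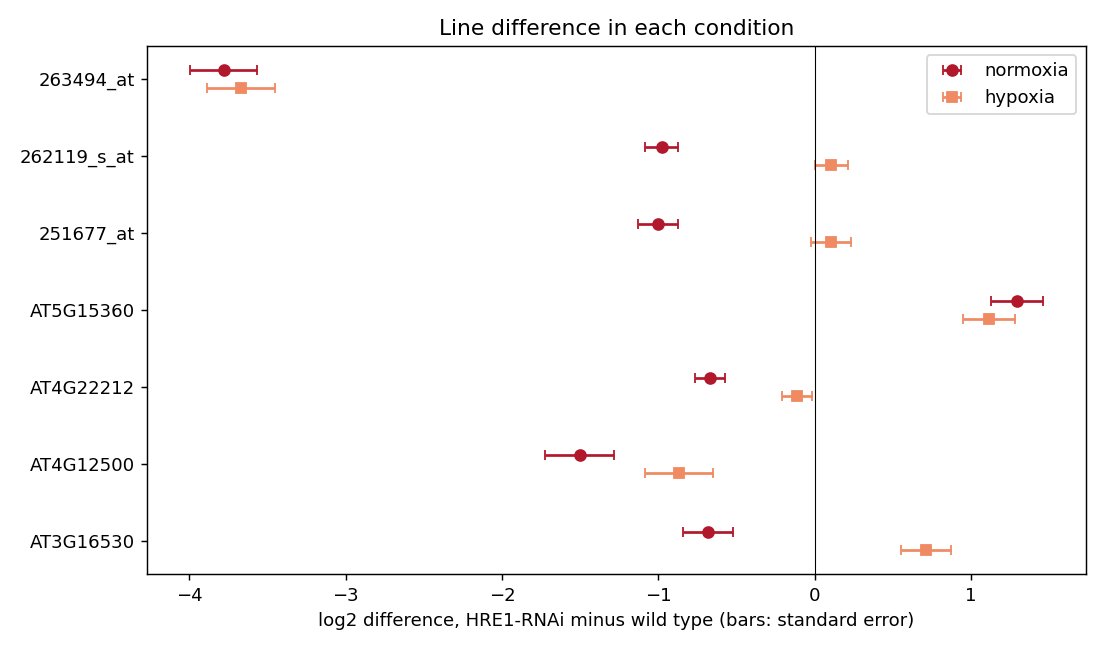
Log2 difference between HRE1-RNAi and wild type, with its standard error, in normoxia (circles) and hypoxia (squares) for the 6 called probe sets and AT3G16530. For 262119_s_at the difference is -0.98 in normoxia and 0.11 in hypoxia, and for AT3G16530 it is -0.68 and 0.71.

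Most of the brighter probe sets were measured precisely enough to bound their difference. Among the 11373 brighter probe sets the median standard error was 0.16 log2, and 98.3% had a 95% interval inside a 2-fold change in either direction. Among the dimmer ones the median standard error was 0.33 and the share 61.0%. Here and for the lists below, intervals are on the scale with 16 added. For dim probe sets they therefore do not bound the change of the transcript. The median difference over all probe sets was -0.0092, and 48.1% lay above 0. In simulated data with the spread of these arrays, this comparison recovered 10% of 50 probe sets changed by 0.5 log2. The share was 64% of 50 at 1 log2 and 92% of 50 at 2 log2, among 22746. All sizes, 4 log2 among them, were planted together, which eases calling beyond a comparison with few changes. These shares are thus likely too high for the real comparison. In the same data 6 unchanged probe sets were called as well, among many more calls than the real comparison gave. A difference under 2-fold could therefore be missed often.

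In all, 120 probe sets differed by at least 2-fold, 27 higher and 93 lower in HRE1-RNAi, and 4 of these were called. They were mostly dim: in 106 the brighter group's mean was below 100, and in 85 the dimmer group's mean was below the 16 that was added. Only 4 uncalled ones had both means of at least 100. At an unadjusted p below 0.05 there were 987 (4.34%), of which 398 were higher (1.75%) and 589 lower (2.59%).

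**Figure D3:**
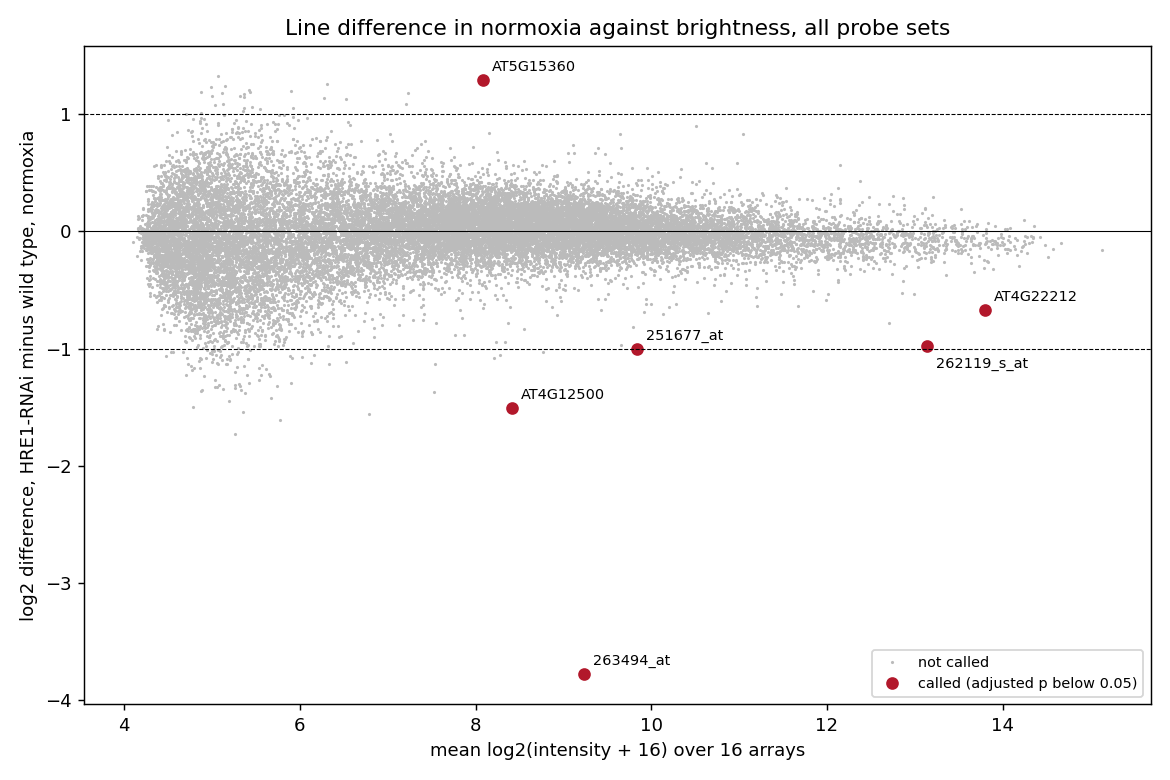
Log2 difference between HRE1-RNAi and wild type in normoxia against the mean log2(intensity + 16) over 16 arrays, for 22746 probe sets; dashed lines mark a 2-fold change and filled circles the 6 called. The cloud is wide at low brightness and narrows to the right, where the called 262119_s_at and AT4G22212 lie below it.

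Without HRE1-RNAi normoxia replicate 4 the calls were 3 higher and 7 lower, and these contained all 6. The additions, named here only because this setting called them, were AT5G22555, 249063_at, 260956_at and 266267_at. Without wild type normoxia replicate 2 the calls were 2 higher and 6 lower, again with all 6, 248207_at and 262046_at being added. Without both HRE1-RNAi arrays numbered 4 they were 5 higher and 12 lower. With array weights, which lower the share of replicate 4, 2 were higher and 16 lower, including the 6 and 12 others.

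Next to the called set, genes with the smallest unadjusted p in each direction are given as values, since none passed the test (limma adjusted p from 0.071 to 0.81). SWEET11, a sucrose transporter, had 4888.9, 4636.7, 5025.5 and 4751.4 in HRE1-RNAi normoxia, against 3687.1, 2848.1, 3148.4 and 3249.1 in wild type normoxia. No array overlapped, and the difference was 0.58 ± 0.11 log2 (limma adjusted p = 0.075). It was called with quantile normalization, with the dimmest 40% of probe sets left out, with array weights and without both HRE1-RNAi arrays numbered 4. In hypoxia SWEET11 averaged 1148 in HRE1-RNAi and 882 in wild type (0.37 ± 0.11).

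Of the other 11 genes on the higher side, most were dim. In 7 of the 12 the wild type mean was below the added 16, as for AT4G13320 (31.98 ± 9.58 in HRE1-RNAi, 5.33 ± 2.01 in wild type, SD). In hypoxia AT4G13320 lay the other way without overlap, at 6.43 in HRE1-RNAi and 33.15 in wild type (-1.03 ± 0.31), and the difference between conditions was not called (-2.18 ± 0.44, limma adjusted p = 0.15). Brighter ones were AT5G04120 (591 ± 256 and 253 ± 27.4), AT4G02210 (371 ± 56.0 and 247 ± 51.3) and AT3G51130 (1776 ± 312 and 1314 ± 138). CLUB, a subunit of a complex that tethers transport vesicles, averaged 859 ± 201 in HRE1-RNAi and 587 ± 72.7 in wild type. The name AT5G04120 rests on the probe table's pairing alone, which could not be checked and is doubtful. That probe set was uneven in HRE1-RNAi, at 398.0, 604.9, 947.6 and 413.7. The rest were AT3G31403, annotated as a pseudogene, AT5G25750, AT3G46380, AT4G19650, AT2G19410 and AT2G36710, with differences of 0.95 to 1.25 log2. In hypoxia, 7 of the 12 lay above 0, where 46.9% of all probe sets did.

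On the lower side the smallest p among genes belonged to AT4G05300, an annotated pseudogene. It had 1.9, 1.3, 3.4 and 0.8 in HRE1-RNAi normoxia, against 41.7, 39.0, 25.4 and 32.5 in wild type normoxia. These levels lie so low that the difference (-1.50 ± 0.28 log2, limma adjusted p = 0.071) depends on the pseudocount, and it was called with a pseudocount of 1, with array weights, with neither trend nor robust moderation and without wild type hypoxia replicate 1. AT4G01390 averaged 129 ± 29.5 in HRE1-RNAi and 308 ± 96.1 in wild type (-1.13 ± 0.22). AT2G38870, which encodes a protease inhibitor of the potato inhibitor type, averaged 961 ± 122 and 1507 ± 254 (-0.63 ± 0.14).

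CML38, a calmodulin-like protein strongly induced by low oxygen, had 25.2, 75.3, 95.9 and 82.0 in HRE1-RNAi normoxia, against 146.4, 154.7, 115.5 and 151.7 in wild type normoxia. It did not overlap, but it was not called (-0.97 ± 0.23 log2, limma adjusted p = 0.34). In hypoxia CML38 averaged 5573 in HRE1-RNAi and 6143 in wild type (-0.11 ± 0.23). AT5G22555, strongly raised by hypoxia in wild type (3.99 ± 0.25), averaged 49.7 ± 29.1 in HRE1-RNAi normoxia and 111 ± 17.4 in wild type normoxia.

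AT3G16530, a lectin-type gene, had 248.7, 269.1, 275.3 and 271.5 in HRE1-RNAi normoxia, against 517.7, 422.7, 405.4 and 409.4 in wild type normoxia. The difference of -0.68 ± 0.16 log2 was not called (limma adjusted p = 0.34), except with array weights. Its hypoxia difference had the opposite sign, 3409 in HRE1-RNAi and 2084 in wild type (0.71 ± 0.16), and was not called either. The difference between conditions was called (1.40 ± 0.23 log2, limma adjusted p = 0.022). It lost this call with neither trend nor robust moderation (limma adjusted p = 0.11). Leaving out any of wild type normoxia 1 to 4, HRE1-RNAi normoxia 1, wild type hypoxia 2 or HRE1-RNAi hypoxia 1 to 3 ended it as well (0.059 to 0.10).

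AT4G37290 followed a like pattern of values, at 6.35 ± 0.98 in HRE1-RNAi normoxia against 52.2 ± 21.0 in wild type normoxia, and 490 in HRE1-RNAi hypoxia against 248 in wild type hypoxia. Its change between conditions was not called (limma adjusted p = 0.25). The remaining genes were AT4G10910, AT5G48210, AT4G19380, AT3G32300 and AT1G21550, with means of 3.90 to 10.98 in HRE1-RNAi and 27.98 to 49.05 in wild type. In hypoxia 5 of these 12 lay below 0, where 46.9% of all probe sets lay above 0, so this count does not set the 12 apart. Wild type hypoxia was higher than wild type normoxia, as called, for 5 of the 12 and lower for 5, beside 17.8% of all probe sets in either direction. Both comparisons use the wild type normoxia arrays, so these counts are not independent of how the 12 were picked.

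Defensins are antimicrobial peptides, and 10 of 17 listed were measured. Of these 1 was called, AT4G22212, and 9 were not, beside 0.0264% called of all probe sets. Of the 10, 9 were below 0, as were 11794 of all 22746 probe sets. The median was -0.33 against -0.0092 over all probe sets. This list, and that of the lipid transfer genes, were written with the call of their leading member known, so neither count is independent of it. PDF2.1 averaged 438 in HRE1-RNAi and 624 in wild type (-0.48 ± 0.19), and LCR69, also a defensin of the PDF2 type, 14723 and 17641 (-0.26 ± 0.12). In hypoxia the difference was -0.57 ± 0.19 for PDF2.1 and -0.0010 ± 0.12 for LCR69. The list's median was -0.029 there, with 7 of 10 below 0. At an unadjusted p below 0.05, 3 of the 10 were lower in normoxia, beside 2.59% of all probe sets. The list holds neighbouring gene copies, which can share sequence, so its members may not be separate measurements.

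Of 12 listed lipid transfer genes, AZI1, EARLI1 and their relatives, 6 were measured, AZI1 and EARLI1 not among them. Only AT4G12500 was called, beside 0.0264% of all probe sets. Below 0 were 5 of 6, as were 11794 of all 22746 probe sets, and the list's median was -0.60. AT4G12490, a close relative of AT4G12500 that lies beside it in the annotation, averaged 108 in HRE1-RNAi and 188 in wild type (-0.78 ± 0.24, limma adjusted p = 0.73). Neighbouring copies of such a cluster can share sequence, so the probe sets of AT4G12490 and AT4G12500 may not be separate measurements. AT4G22470 was dim, at 20.3 and 34.75, and its interval spanned 0 (-0.59 ± 0.33). The median was -0.27 without HRE1-RNAi normoxia replicate 4 and -0.32 with a pseudocount of 64. Without the dimmest 40% of probe sets it was -1.14, but only over the fewer members that remained, so that value does not describe the same list. In hypoxia it was -0.037, with 3 of 6 below 0.

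**Figure D4:**
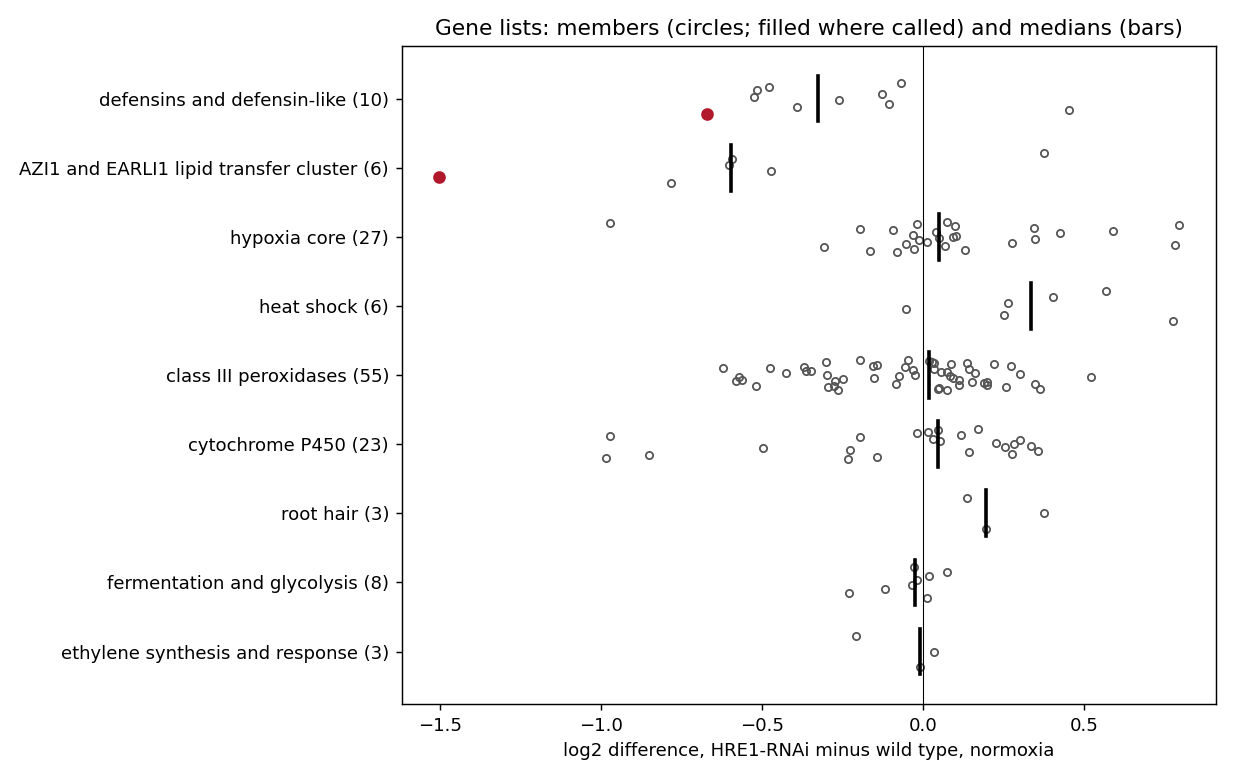
Log2 difference between HRE1-RNAi and wild type in normoxia for the measured members of 9 gene lists (circles, filled where called), with their median (bar) and number in brackets. The 2 called members are AT4G22212 and AT4G12500, and the defensin and lipid transfer lists have medians of -0.33 and -0.60.

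Genes of the core response to hypoxia, among them known targets of group VII factors, had a median difference close to 0 in air. Single members ranged from -0.97 to 0.79 log2. Of 48 listed 27 were measured and 0 were called, beside 0.0264% of all. At an unadjusted p below 0.05, limma gave 2 higher and 1 lower of the 27, beside 1.75% higher and 2.59% lower over all probe sets. Their median was 0.049, with 16 above 0, and 22 of 27 had a 95% interval inside a 2-fold change. The median was -0.040 without HRE1-RNAi normoxia replicate 4 and -0.015 without wild type normoxia replicate 1. The single lower one is CML38. AT2G15880 averaged 87.5 in HRE1-RNAi and 49.4 in wild type (0.78 ± 0.36), and AT5G45960 averaged 35.8 and 14.75 (0.79 ± 0.37).

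Of 21 fermentation and glycolysis genes 8 were measured, 0 were called and all 8 had intervals inside a 2-fold change. Their median was -0.026, with 5 of 8 below 0, as were 11794 of all 22746 probe sets. It was -0.15 without HRE1-RNAi normoxia replicate 3 and -0.059 without replicate 2, but 0.081 without replicate 4, 0.0036 without replicate 1 and 0.017 without wild type normoxia replicate 2. The lowest was AT4G26390, a pyruvate kinase gene, which was dim at 8.20 in HRE1-RNAi and 14.1 in wild type (-0.23 ± 0.31, 95% interval -0.87 to 0.41). Both its means lie below the added 16, so this interval does not bound the change of its transcript. AT5G08570, also a pyruvate kinase gene, averaged 1487 and 1573 (-0.12 ± 0.20). PDC2, a pyruvate decarboxylase of ethanol fermentation, averaged 962 in HRE1-RNAi and 889 in wild type, a difference of 0.07 ± 0.24 log2 (95% interval -0.43 to 0.58).

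Heat shock genes had 6 of 18 measured and 0 called, beside 0.0264% of all probe sets. Above 0 were 5 of the 6, as were 48.1% of all probe sets, and the median was 0.33. AT5G51440, a small heat shock protein gene, averaged 151 in HRE1-RNAi and 110 in wild type without overlap (0.40 ± 0.16, limma adjusted p = 1.00). AT1G52560 was dim, at 40.1 and 13.0 (0.77 ± 0.39). The median was 0.15 without HRE1-RNAi normoxia replicate 4. Intervals of 2 of the 6 stayed inside a 2-fold change.

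Class III peroxidases, secreted enzymes that use hydrogen peroxide in the cell wall, had 55 of 73 members measured. None was called, 28 were above 0 and 27 below, and the median was 0.018. Its sign rests on the setting: it was -0.0068 with arrays centred on their median, -0.11 without wild type normoxia replicate 4 and -0.11 without HRE1-RNAi normoxia replicate 3, and also below 0 without HRE1-RNAi normoxia replicate 2 or wild type normoxia replicate 3. At an unadjusted p below 0.05 limma gave 0 higher and 5 lower of the 55, beside 1.75% higher and 2.59% lower over all probe sets. These were AT2G41480 (494 in HRE1-RNAi and 743 in wild type, -0.58 ± 0.17), AT5G19890 (469 and 693, -0.62 ± 0.21), AT4G08780 (401 and 560, -0.57 ± 0.22), AT3G21770 (-0.25 ± 0.11) and AT5G64120 (-0.30 ± 0.14), the last 2 named after their values were seen. In hypoxia AT2G41480 again lay below wild type (-0.43 ± 0.17), while AT5G19890 lay above (0.17 ± 0.21). Over the list, 39 of 55 were above 0 in hypoxia, as were 46.9% of all probe sets, with a list median of 0.17.

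Cytochrome P450 genes, a large family of oxidising enzymes, had 23 members measured and 0 called. Above 0 were 14, beside 48.1% of all probe sets, and the list's median was 0.045. The median was -0.033 without HRE1-RNAi normoxia replicate 1 and -0.013 without replicate 3. The 3 of 23 with an unadjusted p below 0.05, beside 4.34% of all probe sets, were CYP71B38 (14.95 in HRE1-RNAi and 45.3 in wild type), CYP71B16 (5.35 and 28.8) and CYP71B22 (5.08 and 25.7). All 3 lay below wild type (2.59% of all probe sets did at that p) and were dim, with HRE1-RNAi means below the added 16, so the sizes of -0.97 ± 0.32, -0.98 ± 0.37 and -0.85 ± 0.40 depend on it.

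Of 24 ethylene genes 3 were measured, none called and all with intervals inside a 2-fold change. Their median was -0.011 and ranged from -0.086 to 0.13 with single arrays left out. RTE1, which acts with the receptor ETR1, averaged 603 in HRE1-RNAi and 699 in wild type (-0.21 ± 0.14). EIN3, the transcription factor at the end of the ethylene pathway, averaged 1718 and 1667 (0.03 ± 0.13). The ACC oxidase gene AT1G12010, of the last step of ethylene synthesis, averaged 3392 and 3367 (-0.01 ± 0.14).

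The 3 measured root hair genes all lay above 0 without a call, beside 48.1% of all probe sets above 0. EXPA7, an expansin of root hair walls, averaged 604 in HRE1-RNAi and 463 in wild type (0.37 ± 0.24), EXPA18 817 and 723 (0.19 ± 0.22) and XTH26 260 and 234 (0.13 ± 0.32). The single measured marker of dividing cells, the mitotic kinase gene AUR1, averaged 408 and 464 (-0.16 ± 0.15). RCA (0.06 ± 0.17) and LHCB4.1 (-0.02 ± 0.13) lay close to 0. Pathogenesis-related proteins, small RNA silencing genes and markers of endodermis and vasculature had 0 measured members, meaning that the tables used paired no probe set with any of them alone.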

How the data were processed

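Root RNA was measured on 16 one-colour arrays. The authors deposited linear intensity values that their processing notes credit to MAS5, without a version. Of 22810 probe sets 64 controls were left out. Of the 22746 tested, the supplied probe table paired 13513 with 1 gene, 503 with several and 8730 with none, and 13436 took their name from the RefSeq gene table of TAIR10.1. Only genes with 1 pairing are named. The number of arrays limits the precision.

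Intensity was transformed to log2 after adding 16. With limma 3.58.1 in R 4.3.3, group means were fitted over all 16 arrays with trended, robust moderation and 12 residual degrees of freedom. Contrasts were HRE1-RNAi against wild type in normoxia and in hypoxia, the difference of both, and hypoxia against normoxia in each line. Tests were two-sided. The fit was tested on simulated data.

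Named are all called probe sets, the 12 genes of smallest unadjusted p in each direction among uncalled ones, and up to 3 members per list by the same order; 2 peroxidases were added after their values were seen. A gene in a list counts by its brightest probe set. Members and lists were chosen with earlier results of these data known. In normoxia the same-numbered arrays of both lines hardly deviated together (r from -0.044 to 0.0997), so replicate numbers were not taken as pairs. Same-numbered arrays were not compared across conditions. Alternatives were pseudocounts, normalization, filtering, moderation, weights, a block and leaving out arrays.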

Additional observations from a re-analysis of the deposited data

Results flagged for a closer look

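The line difference itself differed between hypoxia and normoxia for 3 of the named probe sets, by limma's interaction test adjusted over all 22746. It was 1.09 ± 0.15 log2 for 262119_s_at (adjusted p = 0.0060), 1.11 ± 0.18 for 251677_at (adjusted p = 0.022) and 1.40 ± 0.23 for AT3G16530 (adjusted p = 0.022). The first pair were lower in HRE1-RNAi in normoxia and overlapped wild type in hypoxia, while AT3G16530 lay below wild type in normoxia and above it in hypoxia.

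Single arrays lay far from the other 3 of their group in 4 of 126 groups of named genes, by Dixon's test on log2 values. Chance alone marks about 5% of such groups. HRE1-RNAi normoxia replicate 3 was high for AT4G01390 (173.4, others 111.5 to 116.6), AT4G26390 (13.7, others 6.0 to 6.8) and CYP71B22 (10.5, others 3.0 to 3.5). Wild type normoxia replicate 1 was high for AT3G16530 (517.7, others 405.4 to 422.7).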

How the results depend on the processing

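The normoxia differences of the 6 called probe sets kept their direction in all alternatives, and their calls in all but 3 of 156 values: AT4G12500 and AT4G22212 with the normoxia arrays alone, and AT4G22212 when moderation was neither trended nor robust (adjusted p = 0.060 each). The counts of calls, 1 higher and 5 lower, moved more. Higher calls were 2 with quantile normalization, without the dimmest 40% of probe sets and with array weights. Lower calls were 8 with a pseudocount of 1, 16 with array weights, and 3 with the normoxia arrays alone or with at least a 2-fold change. Leaving out each of the 16 arrays gave 1 to 3 higher and 5 to 7 lower calls. Without both HRE1-RNAi arrays numbered 4, an alternative chosen after seeing the data, 5 were higher and 12 lower. With the replicate block the counts were again 1 and 5, the same 6 probe sets. In normoxia 2 of 4 arrays correlated best with their own number in the other line, which is too few arrays to settle pairing. For 263494_at the small change of the line difference between conditions (0.11) ranged from -0.052 to 0.32 with single arrays left out, being -0.015 without HRE1-RNAi normoxia replicate 3 and -0.052 without HRE1-RNAi hypoxia replicate 4. AT3G16530 was called in hypoxia with array weights (adjusted p = 0.032) and without the arrays numbered 4 (adjusted p = 0.027). Over 126 recomputed list medians, none moved by more than 1 SD of the 4 HRE1-RNAi arrays' own medians, but this bound is wide. Within it the lipid transfer median ranged from -1.14 to -0.27, the -1.14 being over the fewer members left without the dimmest 40%. The medians of the peroxidases, P450 genes, hypoxia core, fermentation and ethylene lists changed sign in some settings. Dim probe sets limit what could be seen, as did the genes without a paired probe set.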
